A study of Homo sapiens with 6 samples.

Results

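Megakaryocytes are the bone marrow cells that shed platelets, and 9 genes that these cells are known for were followed here in cells labelled H929 (NCI-H929, an established multiple myeloma line) with or without knockdown of IGF2BP1. The rule names the genes and uses none of their values, but they were picked with earlier results of these data known: the receptor genes ITGA2B, ITGB3, GP1BA, GP1BB and GP9, the granule gene PF4, the tubulin gene TUBB1, and the transcription factor genes FLI1 and RUNX1. All 9 were among the 20030 genes of the count table. RNA-seq of 6 libraries, made from poly(A) RNA, addressed which transcripts change when IGF2BP1, an RNA-binding protein that reads N6-methyladenosine, is lowered.

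The control group, IGF2BP1-NC, had 3 libraries from H929 cells labelled IGF2BP1 Negative Control, and the knockdown group, IGF2BP1-KD, had 3 libraries from H929 cells labelled as IGF2BP1 knockdown. Per the study's methods, the knockdown construct was a lentiviral shRNA behind a U6 promoter with puromycin selection of stable cells, and both groups are derivatives of 1 line grown alike. Which of the shRNAs made for the study the knockdown libraries carry is not given in the sources used here, and neither is whether the libraries of a group came from separate cultures, so the p-values below measure only the spread between these libraries, which may be technical. No further treatment or time point is given.

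Library totals ran from 16885449 to 18112179 counts, so that 3 counts, the floor used here for a gene that was not detected, corresponded to 0.166 to 0.178 CPM, which are counts scaled to a common library total. The targeted gene followed the labels: IGF2BP1 had 7550, 6904 and 8055 counts in IGF2BP1-NC cells (libraries 1, 2 and 3, the order kept throughout) against 2193, 1980 and 2019 in IGF2BP1-KD cells (log2 fold change of -1.85, SE 0.07, adjusted p = 4.81e-08 by edgeR). The cell type in the labels did not match most of its markers. Of 12 plasma cell markers, 7 never exceeded 3 counts, among them the defining genes IRF4, TNFRSF17 (BCMA) and CD38. The 3 above 1 CPM in every library were XBP1 (1181 to 2689 counts), SDC1 (35 to 62) and PRDM1 (29 to 60). SLAMF7 had 4, 5 and 4 counts in IGF2BP1-NC cells against 52, 42 and 181 in IGF2BP1-KD cells (adjusted p = 0.00878 by edgeR). Of 12 erythroid markers, 11 were above 1 CPM in every library, and their summed level was 2885 to 4084 CPM in IGF2BP1-NC cells and 3336 to 3559 CPM in IGF2BP1-KD cells. Of 13 megakaryocyte markers (the 9 genes with GP5, GP6, PPBP and VWF), 6 were above 1 CPM in every library and the other 7 never exceeded 8 counts. The summed level of 14 granulocyte markers was 58.1 to 80.2 CPM in IGF2BP1-NC cells and 326 to 858 CPM in IGF2BP1-KD cells. In IGF2BP1-KD cells most of it came from TCN1, MS4A3 and PRG2, with 5277, 4461 and 4026 counts in library 3, the highest. Of the 14, 8 were tested and 5 were called higher, against 13.7% called higher over all tested genes. LYZ, AZU1 and PRTN3 were tested and not called. In RNA pooled from a whole culture, a change in the number of cells of a type and a change in RNA per cell cannot be told apart. A pair of libraries stood apart from the others of their group: in IGF2BP1-NC library 1, 152 of 11994 tested genes were at least 2-fold above or below both other libraries of its group, and in IGF2BP1-KD library 3 it was 93 genes, against 33 to 76 in the other libraries. The values of the 5 tested genes are therefore given with and without this pair. Those of the other named genes are given where leaving it out ended a call or moved a value by over 1.5 times. The fit without the pair holds 2 libraries per group. Because the pair was picked for its distance from its own group, that fit narrows the spread and its adjusted p-values are biased low.

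Platelets stick to injured vessel walls through the GPIb-IX-V receptor, which binds von Willebrand factor and is assembled from the products of GP1BA, GP1BB, GP9 and GP5. They then bind to each other through the integrin αIIbβ3 (ITGA2B with ITGB3), which holds fibrinogen between cells. In megakaryocytes, RUNX1, FLI1 and GATA1 switch these genes on together, TUBB1 builds the microtubule coil of the platelet rim, and PF4 fills the alpha granules. Megakaryocytes and red cell precursors arise from a shared progenitor and share GATA1, NFE2 and TAL1, whereas FLI1 favours the megakaryocyte branch and KLF1 the erythroid one.

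The promoters of 5 of the 9 genes were matched by symbol in the RefSeq promoter table (GRCh38.p14), each spanning 250 bases before to 50 bases after the start that the table takes for the gene. For RUNX1, a gene with several starts, that start lies inside the gene as GENCODE gives it (1115968 bases from its outermost start). The windows of GP1BB and GP9, whose products sit in the same receptor, are shown with those of ITGA2B and TUBB1, because these genes share lineage factors and yet had very different transcript levels. Capitals mark matches, on either strand, to a GATA motif (NGATAN in which the leading letter is A or T and the last is A or G), an ETS motif of the FLI1 kind (NGGAAG with A or C leading) or a RUNX motif (TGNGGT with T or C in the open place).
GP1BB, chr22:19723289-19723588, plus strand: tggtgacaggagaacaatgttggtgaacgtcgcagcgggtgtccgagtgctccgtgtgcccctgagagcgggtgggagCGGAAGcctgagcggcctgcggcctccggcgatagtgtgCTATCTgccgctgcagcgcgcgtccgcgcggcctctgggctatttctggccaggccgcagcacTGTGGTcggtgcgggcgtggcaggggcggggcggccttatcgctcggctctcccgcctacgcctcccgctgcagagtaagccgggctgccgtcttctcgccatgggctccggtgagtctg
GP9, chr3:129060529-129060828, plus strand: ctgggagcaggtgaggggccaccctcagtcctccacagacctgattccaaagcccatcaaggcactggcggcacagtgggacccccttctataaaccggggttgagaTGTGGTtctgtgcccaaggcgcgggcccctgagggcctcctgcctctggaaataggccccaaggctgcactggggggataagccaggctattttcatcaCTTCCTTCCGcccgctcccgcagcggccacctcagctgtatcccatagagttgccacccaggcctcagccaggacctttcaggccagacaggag
ITGA2B, chr17:44389600-44389899, minus strand: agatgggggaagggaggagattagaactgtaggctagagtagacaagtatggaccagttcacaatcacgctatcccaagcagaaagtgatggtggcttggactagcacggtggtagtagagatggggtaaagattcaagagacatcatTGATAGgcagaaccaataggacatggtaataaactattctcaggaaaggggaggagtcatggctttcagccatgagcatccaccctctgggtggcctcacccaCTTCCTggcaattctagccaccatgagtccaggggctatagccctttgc
TUBB1, chr20:59019179-59019478, plus strand: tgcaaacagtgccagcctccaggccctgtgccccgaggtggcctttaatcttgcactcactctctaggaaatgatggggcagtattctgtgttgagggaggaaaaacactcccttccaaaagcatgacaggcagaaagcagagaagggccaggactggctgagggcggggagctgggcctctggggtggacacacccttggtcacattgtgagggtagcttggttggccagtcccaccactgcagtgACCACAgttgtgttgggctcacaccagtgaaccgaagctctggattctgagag

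The GP1BB window held 1 match of each kind. An ETS match started at position -172, a GATA match at -133 and a RUNX match at -70, counted from the start of the gene. The window begins before the RefSeq end of the neighbouring gene SEPTIN5 (19723319), which is on the same strand. In GENCODE the whole window lies within SEPTIN5 (chr22:19714503-19724224). Matches to all 3 kinds were found in 2.18% of the 27305 promoter windows of this length. The GP9 window held a RUNX match at -143 and overlapping ETS matches at -44 and -40. ITGA2B held a GATA match at -102 and an ETS match at 2, and TUBB1 held a RUNX match at -3. The RUNX1 window, at its inner start, held none of these letters. Over all windows, 25.5% held a GATA match, 47.2% an ETS match and 19.4% a RUNX match, so that single matches were common, and a match describes the letters only. The promoters of ITGB3, GP1BA, PF4 and FLI1 were not analysed here.

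Of the 9 genes, 5 were transcribed at levels that could be tested and 4 were not detected above the floor. GP1BB, ITGB3 and TUBB1 were lower in IGF2BP1-KD cells, no gene of the 9 was higher, and ITGA2B and RUNX1 did not pass the test. Over all 11994 tested genes, 14.5% were called lower and 13.7% higher at an adjusted p under 0.05, and 45.6% had no overlap between the groups. The counts of GP1BB, ITGB3 and TUBB1 did not overlap between the groups, those of ITGA2B and RUNX1 did, and no inference about the group of genes is drawn from 5 tested members.

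**Figure D1:**
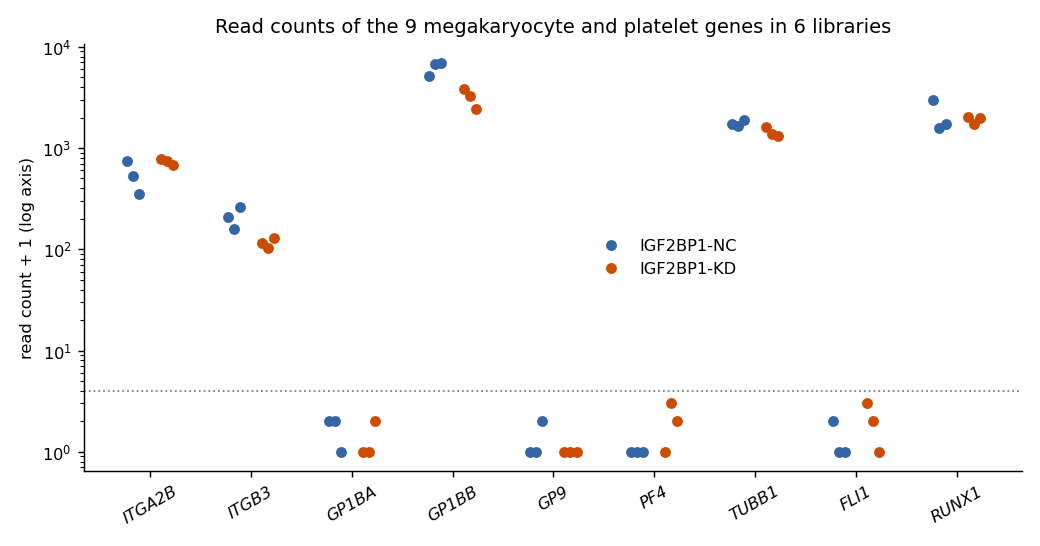
Read count plus 1 (log axis) of each of the 9 genes in the 3 IGF2BP1-NC libraries (blue) and the 3 IGF2BP1-KD libraries (orange), 1 point per library, with libraries 1, 2 and 3 from left to right; the dotted line marks 3 counts. GP1BA, GP9, PF4 and FLI1 sit below the line in all 6 libraries, whereas GP1BB reaches 6843 counts.

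The receptor for von Willebrand factor was represented by 1 of its subunit genes. GP1BB (gene 2812, chr22:19723539-19724771, plus strand, 2 exons in the GENCODE canonical transcript) encodes glycoprotein Ib beta, the subunit that holds the complex together at the membrane. Its counts were 5134, 6745 and 6843 in IGF2BP1-NC cells and 3801, 3254 and 2404 in IGF2BP1-KD cells. Every knockdown library was below every control library, with the lowest value in IGF2BP1-KD library 3. Per length, GP1BB was at 369 ± 52.0 FPKM (SD, n = 3) in IGF2BP1-NC cells and 189 ± 40.2 FPKM (SD, n = 3) in IGF2BP1-KD cells, and only 171 of the 20030 genes had a higher mean FPKM. The fall was 49.2% (log2 fold change of -0.98, SE 0.20, adjusted p = 0.0178 by edgeR). Without the pair of libraries that stood apart it was -0.94 (adjusted p = 1.83e-11, biased low because the pair was left out for its distance). The call was lost when IGF2BP1-NC library 2 (adjusted p = 0.0510), IGF2BP1-NC library 3 (adjusted p = 0.0615) or IGF2BP1-KD library 2 (adjusted p = 0.0500023) was left out.

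The partner subunits were at the floor. GP1BA (gene 2811, chr17:4932277-4935023), which carries the binding site for von Willebrand factor, had 1, 1 and 0 counts in IGF2BP1-NC cells and 0, 0 and 1 in IGF2BP1-KD cells. GP9 (gene 2815, chr3:129060779-129062406), which encodes glycoprotein IX, had a single count in IGF2BP1-NC library 3 and 0 in the other 5 libraries. GP5, which encodes glycoprotein V and is not 1 of the 9 genes, had 2, 2 and 1 counts against 3, 0 and 2. No difference between the groups was detectable at this depth for these genes, and none entered the test.

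GP1BB lies just downstream of the septin gene SEPTIN5 (SEPT5 in the table), on the same strand. In RefSeq, SEPTIN5 ends at 19723319 and GP1BB starts at 19723539, with 219 bases between them, whereas in GENCODE the genes share 686 bases and a readthrough gene (chr22:19717220-19724772) covers both. Reads of a readthrough transcript and reads of GP1BB itself cannot be told apart in gene totals. SEPT5, which encodes a septin of the vesicle release machinery of platelets and neurons, had 7533, 9915 and 11372 counts in IGF2BP1-NC cells and 5325, 4157 and 3688 in IGF2BP1-KD cells. It was lower in all 3 knockdown libraries than in any control library (log2 fold change of -1.12, SE 0.19, adjusted p = 0.00940 by edgeR). The ratio of GP1BB to SEPT5 counts was 0.682, 0.680 and 0.602 in IGF2BP1-NC cells and 0.714, 0.783 and 0.652 in IGF2BP1-KD cells. These ratios overlapped between the groups (exact permutation test, two-sided p = 0.3, where 0.1 is the smallest p that 3 against 3 libraries allow). Without the pair that stood apart they did not overlap, at 0.602 to 0.680 in IGF2BP1-NC cells and 0.714 to 0.783 in IGF2BP1-KD cells, and SEPT5 itself was at -1.16 (adjusted p = 8.61e-07). Over the 6 libraries, SEPT5 ranked 6 among 10098 candidate genes by likeness to GP1BB, with a root mean square difference of 0.116 in centred log2 CPM. The closest were RIPOR3 (0.0893) and MVD, an enzyme of sterol synthesis (0.0945).

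**Figure D2:**
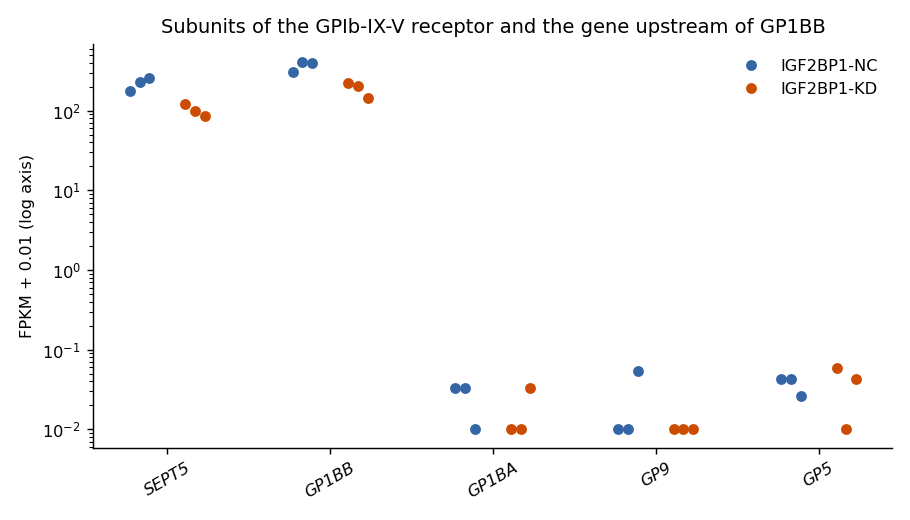
FPKM plus 0.01 (log axis) of SEPT5, the gene upstream of GP1BB, and of the 4 subunit genes of the GPIb-IX-V receptor, 1 point per library, with IGF2BP1-NC in blue and IGF2BP1-KD in orange. SEPT5 and GP1BB lie at 86.2 to 404 FPKM and fall in the knockdown libraries, whereas GP1BA, GP9 and GP5 stay under 0.1 FPKM.

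Of the subunit genes of the fibrinogen receptor, ITGB3 was called lower and ITGA2B was not called. ITGB3 (gene 3690, chr17:47253827-47313743, plus strand, 15 exons) encodes integrin β3, which pairs with αIIb in platelets and with αV in many other cells. It had 209, 157 and 260 counts in IGF2BP1-NC cells and 115, 102 and 128 counts in IGF2BP1-KD cells. All knockdown libraries were below all control libraries, and the level went from 2.41 ± 0.548 FPKM (SD, n = 3) to 1.35 ± 0.137 FPKM (SD, n = 3). This fall of 44.5% (log2 fold change of -0.85, SE 0.18, adjusted p = 0.00556 by edgeR) passed the test whichever library was omitted (-1.005 to -0.67, adjusted p = 0.00518 to 0.0283) and without the pair that stood apart (-0.93, adjusted p = 0.00139). GENCODE places a readthrough gene on the same strand across ITGB3, whose share of the reads was not tested.

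ITGA2B (gene 3674, chr17:44372180-44389649, minus strand, 30 exons, no overlapping gene in GENCODE) encodes integrin αIIb, the subunit found almost only on megakaryocytes and platelets. It had 741, 530 and 351 counts in IGF2BP1-NC cells and 769, 745 and 679 counts in IGF2BP1-KD cells. The control libraries were spread over more than 2-fold and IGF2BP1-NC library 1 lay inside the knockdown range. The level was 8.99 ± 3.41 FPKM (SD, n = 3) in IGF2BP1-NC cells and 12.3 ± 0.785 FPKM (SD, n = 3) in IGF2BP1-KD cells. The difference did not pass the test (log2 fold change of 0.44, 95% interval -0.25 to 1.13, adjusted p = 0.295 by edgeR), and with the interval this wide a difference in either direction remained possible. Without IGF2BP1-NC library 1, ITGA2B was called higher in IGF2BP1-KD cells (0.74, adjusted p = 0.0230), as it was without the pair that stood apart (0.79, adjusted p = 0.0389), whereas omitting any of the other 5 libraries gave no call.

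On the scale per length, the ratio of ITGA2B to ITGB3 was 5.06, 4.82 and 1.93 in IGF2BP1-NC cells and 9.54, 10.4 and 7.57 in IGF2BP1-KD cells. Every knockdown library was above every control library, which gives the smallest p of the design (exact permutation test, two-sided p = 0.1). ITGAV, which encodes the other partner of β3, had 962, 803 and 904 counts against 527, 576 and 631 and was lower in IGF2BP1-KD cells (log2 fold change of -0.61, SE 0.09, adjusted p = 0.000970 by edgeR). The ratio of ITGAV to ITGB3 per length was 3.12, 3.47 and 2.36 in IGF2BP1-NC cells and 3.11, 3.83 and 3.35 in IGF2BP1-KD cells, with overlap between the groups (exact permutation test, two-sided p = 0.5). By likeness over the 6 libraries, the genes nearest to ITGB3 were IMPA2 (root mean square difference of 0.146 in centred log2 CPM) and ZFP36L1 (0.149).

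**Figure D3:**
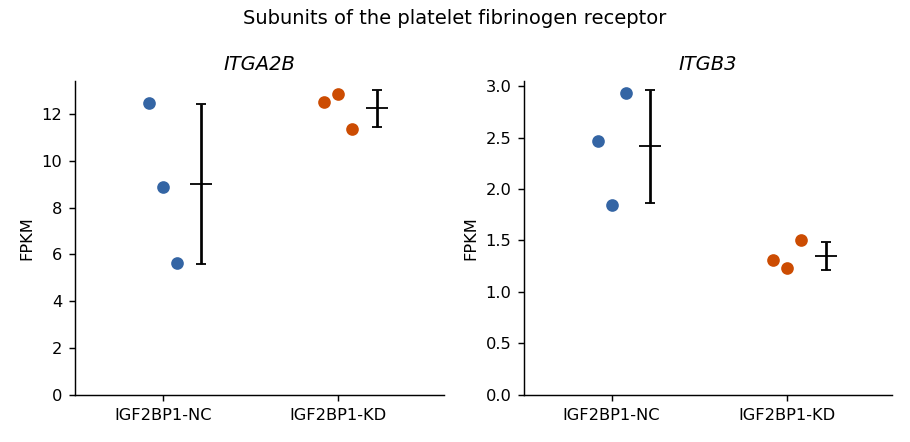
FPKM of ITGA2B (left) and ITGB3 (right), 1 point per library with libraries 1, 2 and 3 from left to right, and the mean with its SD as the bar beside them. The 3 IGF2BP1-KD points of ITGB3 lie below all 3 IGF2BP1-NC points, and the IGF2BP1-NC points of ITGA2B range from 5.65 to 12.5 FPKM.

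TUBB1 (gene 81027, chr20:59019429-59026654, plus strand, 4 exons) encodes the beta-1 tubulin of the platelet marginal band. It had 1715, 1663 and 1882 counts in IGF2BP1-NC cells and 1599, 1362 and 1323 counts in IGF2BP1-KD cells. The groups did not overlap, but the gap between IGF2BP1-NC library 2 and IGF2BP1-KD library 1 was small. The level went from 24.8 ± 1.06 FPKM (SD, n = 3) to 20.4 ± 1.69 FPKM (SD, n = 3), a fall of 18.2% (log2 fold change of -0.29, SE 0.08, adjusted p = 0.0157 by edgeR). It was -0.25 without the pair that stood apart (adjusted p = 0.00851). The call was lost without IGF2BP1-NC library 3 (adjusted p = 0.0566), IGF2BP1-KD library 2 (adjusted p = 0.0650) or IGF2BP1-KD library 3 (adjusted p = 0.0613). TUBB1 shares 1180 bases with ATP5F1E, a gene of the mitochondrial ATP synthase on the opposite strand, which had 3783, 4714 and 4458 counts against 3105, 3219 and 3254 and was also lower (-0.43, adjusted p = 0.00379). The kit keeps the strand, but the strand setting of the counting is not given in the sources used here, so the part of ATP5F1E reads in TUBB1 was not tested. The genes nearest to TUBB1 over the 6 libraries were STX6 (root mean square difference of 0.0238 in centred log2 CPM) and FBXO22 (0.0251).

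The granule chemokine was not detected. PF4 (gene 5196, chr4:73980811-73982027, minus strand) encodes platelet factor 4, among the most abundant transcripts of mature megakaryocytes. Its counts were 0 in all 3 control libraries and 0, 2 and 1 in IGF2BP1-KD cells, all under the floor. Its near copy PF4V1 had 0 counts in all 6 libraries. How the counting treated reads that match both copies is not given in the sources used here, so both values are uncertain to that extent.

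The transcription factors of the set were split in the same way. FLI1 (gene 2313, chr11:128686535-128813267), the ETS factor of the megakaryocyte branch, had 1, 0 and 0 counts in IGF2BP1-NC cells and 2, 1 and 0 in IGF2BP1-KD cells. Its close relative ERG had 2, 2 and 0 counts against 0, 2 and 3, and ETS1 had 71, 29 and 20 counts against 50, 49 and 71. ETS1 did not pass the test (log2 fold change of 0.51, SE 0.42, adjusted p = 0.405 by edgeR) except without IGF2BP1-NC library 1 (1.21, adjusted p = 0.0102) or without the pair (1.02, adjusted p = 0.0130).

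RUNX1 (gene 861, chr21:34787801-36004667, minus strand) encodes the DNA-binding partner of CBFβ that acts across the blood lineages. It had 3003, 1583 and 1727 counts in IGF2BP1-NC cells and 2011, 1729 and 1991 counts in IGF2BP1-KD cells. IGF2BP1-NC library 1 was above all other libraries, and the other control libraries were below all knockdown libraries. The level was 13.7 ± 5.31 FPKM (SD, n = 3) in IGF2BP1-NC cells and 12.5 ± 0.732 FPKM (SD, n = 3) in IGF2BP1-KD cells, and the difference did not pass the test (log2 fold change of -0.13, 95% interval -0.85 to 0.58, adjusted p = 0.759 by edgeR). The direction rested on IGF2BP1-NC library 1: without it, RUNX1 was higher in IGF2BP1-KD cells (0.22, adjusted p = 0.0259), and without the pair that stood apart it was also higher (0.19, adjusted p = 0.0341). CBFB, its partner, had 1458, 1425 and 1397 counts against 1505, 1459 and 1503 and did not pass the test (0.07, SE 0.06, adjusted p = 0.441).

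**Figure D4:**
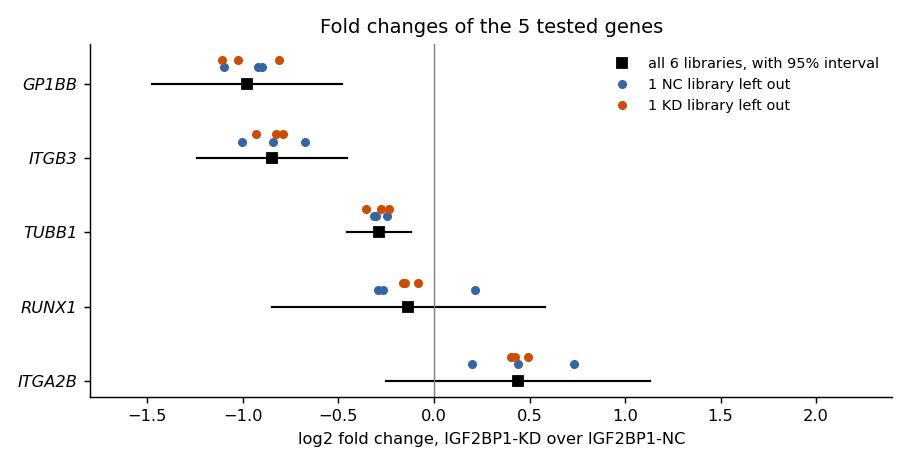
Log2 fold change of IGF2BP1-KD over IGF2BP1-NC for the 5 tested genes, with the fit of all 6 libraries as a black square with its 95% interval and the 6 fits without 1 library as points (blue, an IGF2BP1-NC library left out; orange, an IGF2BP1-KD library left out). GP1BB, ITGB3 and TUBB1 stay below 0 in all fits, whereas RUNX1 crosses to 0.22 when IGF2BP1-NC library 1 is left out.

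The wider programme was described with 7 lists of 147 genes in all, none of which holds any of the 9 genes. Of the 147, 113 were above 1 CPM in every library, 14 never exceeded 3 counts, and 121 were tested, of which 35 (28.9%) were lower and 20 (16.5%) were higher in IGF2BP1-KD cells. The share called in all genes was 14.5% lower and 13.7% higher. The median log2 fold change was -0.05 over the 121 genes and -0.00 over all tested genes. In the platelet activation pathway of the deposited KEGG annotation, which holds 5 of the 9 genes and shares 33 genes with the lists, 26 of 91 tested genes were lower (28.6%) and 9 were higher (9.89%), with a median of -0.07. The lists were chosen with earlier results of these data known, so these shares are no independent evidence of a direction. Without the pair that stood apart, 37 of 122 tested list genes were lower (30.3%) and 31 were higher (25.4%), against 17.8% and 17% of all genes. Below, 31 called genes of the lists are named, of which 22 kept their call whichever library was omitted and 30 kept it without the pair, the exception being CD9.

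Among 18 other adhesion receptors, 10 were tested, 4 were lower and 1 was higher, with a median of -0.13. GP6, the collagen receptor of platelets, had 984, 575 and 604 counts in IGF2BP1-NC cells and 439, 345 and 352 in IGF2BP1-KD cells (log2 fold change of -0.92, adjusted p = 0.0280 by edgeR), and its call was lost without IGF2BP1-KD library 2 (adjusted p = 0.0921) or 3 (adjusted p = 0.117). IGF2BP1-NC library 1 held the highest GP6 count, and without the pair that stood apart the fall was smaller (-0.58, adjusted p = 7.51e-05). F11R, a junctional adhesion molecule of platelets and epithelia, was lower (-0.26, adjusted p = 0.00772), as was ITGAV. CD9, a tetraspanin, had 7, 9 and 9 counts against 14, 18 and 21 (1.08, adjusted p = 0.0473) and lost its call whichever library was left out (adjusted p = 0.0567 to 0.139) and without the pair (0.83, adjusted p = 0.188). GP5, CLEC1B, ITGA2, TREML1 and SELP never exceeded 3 counts.

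Of 28 platelet signalling genes, 24 were tested, 7 were lower and 2 were higher, with a median of -0.07. TBXA2R, the thromboxane receptor, had 228, 221 and 140 counts in IGF2BP1-NC cells and 75, 59 and 49 in IGF2BP1-KD cells (log2 fold change of -1.68, SE 0.23, adjusted p = 0.000567 by edgeR). F2R, the thrombin receptor PAR1, went from 650, 602 and 486 counts to 248, 209 and 214 (-1.37, SE 0.13, adjusted p = 5.17e-05). These receptors for platelet agonists had the largest falls of any gene named here other than the targeted gene. GNAZ, a G protein subunit, and PLCG2, a phospholipase downstream of GP6, were higher (1.10, adjusted p = 0.0146, and 0.59, adjusted p = 0.0406). GNAZ lost its call without IGF2BP1-NC library 2 (adjusted p = 0.0652), IGF2BP1-KD library 1 (0.0622) or IGF2BP1-KD library 2 (0.0500146), and PLCG2 without IGF2BP1-NC library 2 (0.0985) or 3 (0.121) or IGF2BP1-KD library 1 (0.0616) or 3 (0.36, adjusted p = 0.163).

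Of 27 genes for granule contents and granule biogenesis, 19 were tested, 6 were higher and 2 were lower, with a median of 0.09. THBS1, which encodes thrombospondin 1, had 40, 53 and 58 counts in IGF2BP1-NC cells and 162, 200 and 212 in IGF2BP1-KD cells (log2 fold change of 1.93, SE 0.19, adjusted p = 8.04e-05 by edgeR). CLU, which encodes clusterin, had 15, 19 and 13 counts against 47, 43 and 78 (1.83, SE 0.32, adjusted p = 0.00195). Both are secreted by many cell types. ANGPT1, a ligand of the TIE2 receptor, was lower (-0.43, adjusted p = 0.0165), and by less without the pair that stood apart (-0.24, adjusted p = 0.0304). STXBP2, a protein of granule release (-0.22, adjusted p = 0.0175), was lower and lost its call without IGF2BP1-NC library 2 (adjusted p = 0.0520) or IGF2BP1-KD library 1 (0.0618), 2 (0.0592) or 3 (0.0539). The platelet granule genes PPBP and VWF never exceeded 8 counts, and PF4V1, F5, MMRN1 and CXCL5 never exceeded 3.

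Of 17 genes of the proplatelet cytoskeleton, 15 were tested, 2 were lower and 2 were higher, with a median of 0.03. SEPT5, described above, and DIAPH1, a formin that links actin and microtubules (log2 fold change of -0.36, adjusted p = 0.00330 by edgeR), were lower. TUBA4A, an alpha tubulin of platelets (0.43, adjusted p = 0.00427), and TPM1, a tropomyosin (0.35, adjusted p = 0.00884), were higher. The alpha tubulin and the beta tubulin TUBB1 were called in opposite directions.

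Of 29 lineage transcription factor genes, 27 were tested, 10 were lower and 2 were higher, with a median of -0.11. GATA1, the factor shared by megakaryocytes and red cells, had 5143, 5053 and 4863 counts in IGF2BP1-NC cells and 4306, 4032 and 4284 in IGF2BP1-KD cells (log2 fold change of -0.25, SE 0.06, adjusted p = 0.00918 by edgeR), with the call lost only without IGF2BP1-KD library 2 (adjusted p = 0.0503). GATA2, which precedes GATA1 in development, had 3074, 3140 and 3089 counts against 4481, 4124 and 4603 (0.51, SE 0.06, adjusted p = 0.000175). NFE2, the factor that drives TUBB1 and platelet release, went from 4576, 5031 and 4928 counts to 4042, 3699 and 3984 (-0.30, SE 0.06, adjusted p = 0.00434). MEIS1 (-0.78, adjusted p = 0.00666) and MEF2C (-0.76, adjusted p = 0.00102) were lower, and ETV6, a repressor of the ETS family, was higher (0.45, adjusted p = 0.00622). The erythroid factor KLF1 had 3525, 4010 and 4309 counts against 3580, 3098 and 3314 (-0.24, adjusted p = 0.0338), and kept its call only when IGF2BP1-NC library 1 was omitted (omitting any of the other 5 gave adjusted p = 0.0547 to 0.134).

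Of 16 thrombopoietin signalling genes, 14 were tested, 6 were lower and 2 were higher, with a median of -0.28. SOCS3 and SOCS2, which feed back on cytokine receptors, were lower (log2 fold changes of -1.06, adjusted p = 0.00184, and -0.81, adjusted p = 0.0182 by edgeR). SOCS2 lost its call without IGF2BP1-KD library 1 (adjusted p = 0.0687), 2 (0.0631) or 3 (0.0741). STAT3 was higher (0.84, adjusted p = 0.000197), and PTPN11 was higher by less (0.18, adjusted p = 0.0377), a call that was lost without IGF2BP1-NC library 2 (adjusted p = 0.113) or IGF2BP1-KD library 1 (0.0810), 2 (0.126) or 3 (0.0963).

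All 12 genes of endomitosis, the cycling without division by which megakaryocytes become polyploid, were tested, and 5 were higher and 4 lower, with a median of -0.00. These genes act in the division of every cell type. RHOA, the GTPase of the cleavage furrow, had 5896, 6213 and 6268 counts in IGF2BP1-NC cells and 3411, 3413 and 3171 in IGF2BP1-KD cells (log2 fold change of -0.87, SE 0.06, adjusted p = 1.06e-05 by edgeR). CCNE1, a cyclin of S-phase entry, was lower (-0.50, adjusted p = 0.00443), whereas CCND1, a cyclin of G1 (0.74, adjusted p = 0.000964), and AURKA, a mitotic kinase (0.35, adjusted p = 0.00437), were higher.

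**Figure D5:**
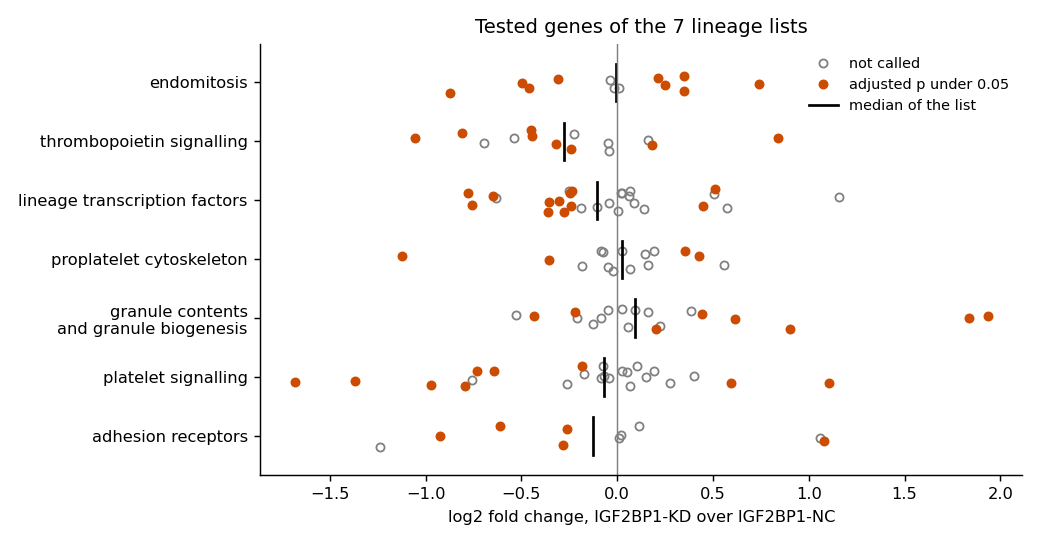
Log2 fold change of IGF2BP1-KD over IGF2BP1-NC of the 121 tested genes of the 7 lineage lists, 1 point per gene (orange, adjusted p under 0.05; open grey, not called), spread at random within each row, with the median of each list as a black line. The medians lie between -0.28 (thrombopoietin signalling) and 0.09 (granule contents and granule biogenesis).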

How the data were processed

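The deposited tables hold 1 read count and 1 FPKM value per gene and library for 3 IGF2BP1-NC and 3 IGF2BP1-KD libraries. Per the study's methods and the submitters' processing notes, the authors made stranded mRNA libraries and used Trimmomatic for trimming, HISAT2 for alignment to GRCh38, HTSeq-count for the counts and Cufflinks for the FPKM values. Versions, the gene annotation and the strand setting are not given in the sources used here. The deposited FPKM values equal the counts scaled by 1 gene length and the library total, and 27 symbols that had become dates in the FPKM table were taken from the count table.

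Counts of 20030 genes were tested with edgeR 4.0.16 in R 4.3.3 (TMM factors, filterByExpr, robust quasi-likelihood F test, two-sided, group only), with Benjamini-Hochberg adjustment over all 11994 tested genes and calls at an adjusted p under 0.05. The code was tested on simulated data. Intervals use the t distribution at the degrees of freedom of the fit, and the floor of 3 counts covers counting error only. Alternatives were DESeq2 1.42.0, limma 3.58.1 (voom, and log2(FPKM + 1) or log2(FPKM + 0.1) with a mean of at least 1 FPKM or all genes), other scaling factors and filters, a replicate block, and each library left out; 1 fit, without both IGF2BP1-NC library 1 and IGF2BP1-KD library 3, was added after the data were seen. Likeness is the root mean square difference of log2 CPM (prior count 2), centred on each gene's mean, over genes with a mean of at least 1 FPKM.

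The 9 genes and the lists were chosen with earlier results of these data known. Genes named from the lists were the 2 highest and 2 lowest called in each list, besides GP5, PF4V1, SEPT5, GATA1, GATA2, NFE2, CBFB, ERG and ETS1, which were named whatever their result, and the 2 genes nearest to each called member. ATP5F1E, KLF1, the ITGAV ratio and genes named as being at the floor were added after their values were seen. Gene positions are from GENCODE release 44 (GRCh38), and promoters from RefSeq (GRCh38.p14). Labels give no batch. A few of the genes looked at are not reported here.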

Additional observations from a re-analysis of the deposited data

How the results depend on the processing

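Of the 9 genes, 3 were called in all 6 libraries together, and 1 to 5 when each library was left out in turn. Without IGF2BP1-NC library 1, and without both IGF2BP1-NC library 1 and IGF2BP1-KD library 3, 5 were called, and RUNX1 changed sign (0.22 and 0.19). Over the 6 single omissions RUNX1 ran from -0.29 to 0.22. Without both libraries, 17.8% of all tested genes were called lower and 17% higher, against 14.5% and 13.7% with all 6. The share over all genes in the single omissions is not given here. The DESeq2, limma, scaling and filter alternatives each called 3. For the lineage lists, 55 genes were called, 46 to 55 under those alternatives, 39 to 67 when each library was left out and 68 without both. The log2 fold changes of GP1BB, ITGB3 and TUBB1 were below 0 in all 17 alternatives. ITGB3 was called in all 17, whereas GP1BB and TUBB1 each lost their call in some. The log2 fold change of ITGB3 was as small as -0.53 on the log2(FPKM + 1) scale, which understates changes of low genes. Deviations of same-numbered libraries from their group means had correlations of -0.05, 0.04 and -0.11. Of the IGF2BP1-NC libraries, only library 2 correlated best with its own number. With 3 libraries a group, these values cannot decide whether the shared replicate numbers pair the libraries. With the replicate number as a block, 2 of the 9 genes and 49 list genes were called, and 6 of the 40 named genes with a fit lost their call, among them GP1BB (-0.99, adjusted p = 0.0638) and SEPT5 (adjusted p = 0.0666). With 3 libraries a group, a count near the floor, as for GP1BA, GP9, PF4 and FLI1, allows no comparison.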

Other observations

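The chromosomal neighbours of GP1BB were looked up after its values had been seen. Of the RefSeq genes reported here that start within 500000 bases of GP1BB on chromosome 22 and are in the count table, 16 were tested. In IGF2BP1-KD cells 2 were lower, 2 were higher and 12 were not called. Over all tested genes 14.5% were called lower and 13.7% higher, so these counts are near the share in all genes. The lower genes were SEPT5 and CDC45, a replication factor, which had 7797, 8224 and 8128 counts in IGF2BP1-NC cells and 6486, 6164 and 5882 in IGF2BP1-KD cells (log2 fold change of -0.37, SE 0.06, adjusted p = 0.00134 by edgeR). The higher genes were RTL10 (0.21, adjusted p = 0.0401) and TXNRD2, a mitochondrial thioredoxin reductase (0.26, adjusted p = 0.0116). TBX1, the next of these genes downstream of GP1BB, had 391, 482 and 399 counts against 389, 353 and 310 and did not pass the test (-0.27, SE 0.12, adjusted p = 0.114). CLDN5, the nearest of these genes upstream of SEPT5, never exceeded 3 counts.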
